A study of Mus musculus with 10 samples.

Results

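The mitochondrial ribosomal protein genes of the mouse carry symbols that start with Mrpl (proteins first assigned to the large subunit) or Mrps (small subunit), followed by a number. All protein-coding genes of the count files whose symbol in GENCODE M21 has this form were taken, which gave 77 of the 16112 genes counted, 48 Mrpl and 29 Mrps, on 17 chromosomes. The annotation holds 78 such genes, and Mrpl53 was not analysed here. By the place of their products in the ribosome, 50 members belong to the large subunit, 26 to the small subunit, and 1 to neither. The large subunit count includes Mrps18a and Mrps30, whose products sit there in spite of their names. The member outside the ribosome is Mrps36, whose product is now known as a component of the oxoglutarate dehydrogenase complex.

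RNA was taken from 3 muscles of wild type mice of the strain B6C3Fe a/a-Ttnmdm/J, which is kept for a mutation of titin that the mice studied here did not carry. The extensor digitorum longus (EDL) and psoas are fast muscles, and the soleus is a slow muscle. The groups held 3 EDL, 3 psoas, and 4 soleus libraries of RNA from whole muscle. EDL and psoas were matched by replicate number in age and sex, with males of 42 and 54 days in replicates 1 and 2 and females of 44 days in replicate 3. Soleus 1 came from a male of 42 days, soleus 2 and 4 from females of 44 days, and soleus 3 from a mouse of 32 days whose sex is not given. The labels hold 7 animal codes, of which 765A gave EDL 3 and soleus 2, 765B gave psoas 3 and soleus 4, and 659 gave psoas 1 and soleus 1.

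Mitochondria keep their own ribosomes, which translate the few proteins encoded in the mitochondrial genome, all of them subunits of the respiratory chain or of ATP synthase. The RNA of this ribosome is made in the mitochondrion, whereas every protein of it is encoded in the nucleus, translated in the cytosol, and imported. Some of these proteins have counterparts in bacterial ribosomes (48 members), while others are found only in mitochondrial ribosomes (28 members). Skeletal muscle fibers differ in how much oxidative metabolism they use, and slow and fast oxidative fibers are rich in mitochondria.

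Total counts ranged from 12737971 to 50431713 per library, and no member had fewer than 14 counts in any library. The myosin markers fitted the labels, since Myh7, the slow myosin, had an FPKM of 793 to 1580 in soleus and at most 13.6 in the other libraries, and Myh4, the fastest myosin, had 6380 to 9420 in EDL and psoas and at most 281 in soleus. Reads of EDL 1, EDL 2, psoas 1, and psoas 2 had been quality-trimmed before alignment and those of the other 6 libraries had not, so that trimming was balanced between EDL and psoas but absent from soleus. The members took 0.156 to 0.202% of all counts in the 4 trimmed libraries and 0.234 to 0.29% in the 6 untrimmed ones. By the study's supplement, each EDL library had a higher RNA integrity number than any psoas or soleus library. RNA integrity thus differed along with the contrast of EDL and the other muscles, and its part in the results was not tested. Lars2, the gene of the mitochondrial leucyl-tRNA synthetase, was assigned 7.25 to 12.4% of all counts in 4 libraries. These were EDL 1, psoas 1, psoas 2, and soleus 1, and the others had at most 0.076%. Whether these reads come from the mRNA of this enzyme was not tested, and the share is not read here as its level. In tissue RNA of this kind, fewer cells of a type and less RNA per cell cannot be told apart.

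Levels of the members were compared as FPKM, computed from the counts with the length of all exons of a gene and TMM-scaled library sizes. The mean FPKM over the 10 libraries had a median of 8.41 over the members, 9.29 in the large subunit and 5.21 in the small subunit. A mean of at least 10 FPKM was reached by 31 members, and 8 members lay under 3 FPKM. Mrps21 was highest, with a mean of 86.5 FPKM and between 66.4 (EDL 1) and 103 (psoas 3) per library. It was followed by Mrpl18 (52.2 FPKM), Mrps28 (43.1 FPKM), Mrpl2 (42.6 FPKM), whose product lies near the catalytic center, and Mrpl42 (40.7 FPKM). Within EDL and within psoas the libraries of these 4 overlapped, while in soleus Mrpl18 (47.3 to 62.3 FPKM) and Mrpl2 (40.8 to 48.5 FPKM) lay above Mrpl42 (29.0 to 39.2 FPKM). At the other end stood Mrps35 (2.14 FPKM), Mrps6 (2.1 FPKM), Mrps10 (1.98 FPKM), Mrps18b (1.95 FPKM), and Mrps34 (0.826 FPKM), all of the small subunit.

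Mrps34, at chr17:24895116-24897502 of GRCm38, was 105-fold below Mrps21 per kilobase of exon. It stood at 0.905, 1.0, and 0.452 FPKM in EDL, 1.14, 1.04, and 0.48 in psoas, and 1.19, 0.768, 0.657, and 0.614 in soleus. The 4 trimmed libraries and soleus 1 were above the other 5, and the muscles overlapped. Its exons overlap those of Mapk8ip3 on the opposite strand and of Nme3, which is not among the genes analysed here, on the same strand, and the counting of such reads is not stated, so that its level is uncertain. In all, 27 of the 77 members share exon bases with another counted gene.

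**Figure D1:**
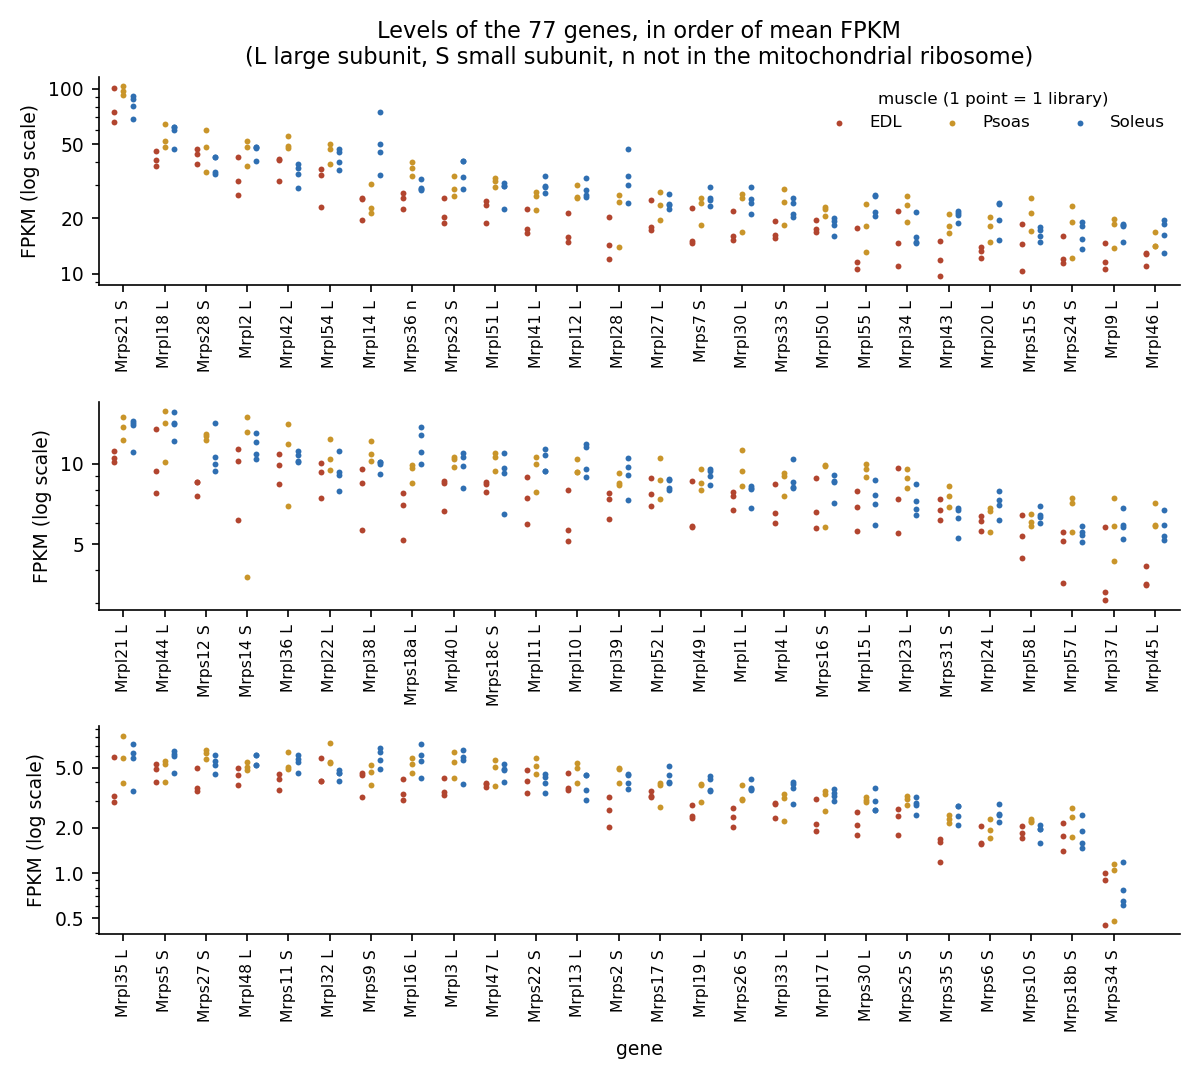
FPKM of the 77 mitochondrial ribosomal protein genes (log scale) in order of mean FPKM, continued over 3 panels with axes of their own, with 1 point per library and the muscle by color. Levels run from Mrps21 with a mean of 86.5 FPKM to Mrps34 with 0.826 FPKM. The 5 lowest genes by this measure, which depends on annotated exon length, all belong to the small subunit.

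Beyond these levels, most members varied alike from library to library. For each member, its CPM (counts scaled to a common library size with TMM) were divided by its mean over the 10 libraries, and the median of the log2 of this ratio over the 77 members was taken per library. It was -0.48, -0.28, and -0.12 in EDL 1 to 3, -0.07, 0.19, and 0.17 in psoas 1 to 3, and 0.18, -0.09, 0.16, and 0.14 in soleus 1 to 4. EDL 1 was the lowest library and lay below the gene's own mean for 76 of the 77 members, EDL 2 for 68, and EDL 3 for 53. Psoas 1 and soleus 2 stood under 0 as well, so that the EDL libraries lay lowest but EDL 3 lay close to soleus 2. EDL 1 held the lowest value for 49 members and psoas 2 the highest for 27.

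**Figure D2:**
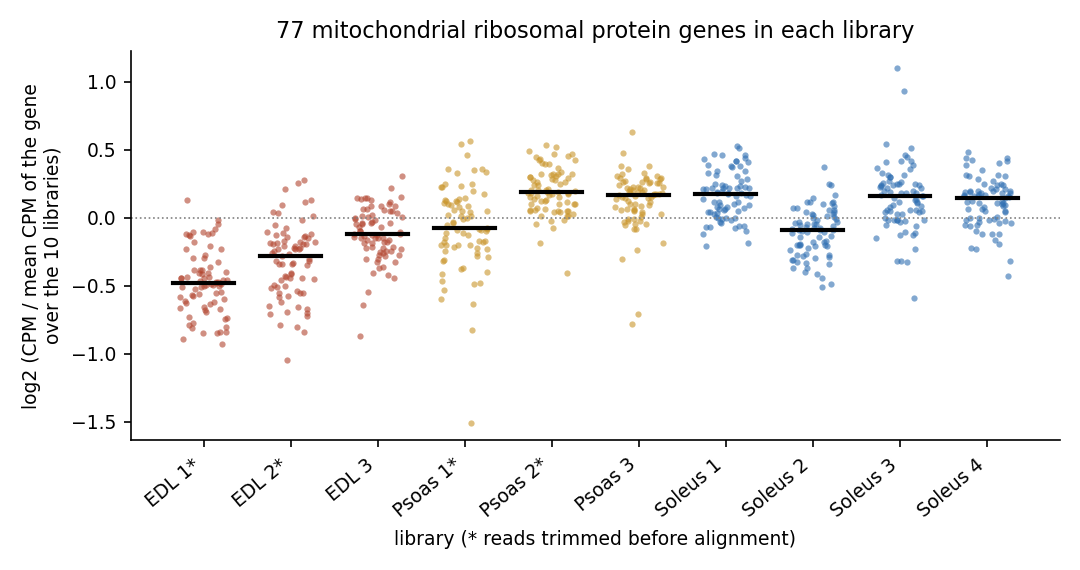
Level of each of the 77 genes in each library, as log2 of its CPM over its mean CPM in the 10 libraries (1 point per gene, bar at the median, asterisk for libraries with trimmed reads). The medians of the 3 EDL libraries, at -0.48, -0.28, and -0.12, lie under those of all other libraries, which range from -0.09 to 0.19.

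Across the 10 libraries, the correlation of a member with the mean of the other members had a median of 0.81 and was over 0.5 for 65 of the 77. These points share library depth and scaling, and the values are given as a description. Mrpl2 (0.98), Mrpl9 (0.96), and Mrpl18 (0.95) followed the rest most closely. The members least like the others were Mrps34 (-0.16), Mrpl32 (0.13), whose product needs cleavage by a protease of the inner membrane before it enters the ribosome, Mrps31 (0.22), Mrps22 (0.27), and Mrps28 (0.27).

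Mrps14 and Mrpl35 varied in another way. Mrps14 had an FPKM of 3.76 in psoas 1 and 6.18 in EDL 2, against 10.3 to 15 in the other 8 libraries. Mrpl35 stood at 2.95, 3.26, and 5.87 FPKM in EDL, 5.79, 3.98, and 8.15 in psoas, and 5.79, 6.25, 3.5, and 7.14 in soleus, with overlap between all muscles. Both genes were chosen for mention after their values were seen.

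The sequence before their start sites was searched for short motifs of factors known to act at promoters of nuclear genes for mitochondrial proteins. RefSeq start sites of GRCm38.p6 (250 bases before and 50 bases after) were at hand for 68 of the 77 members and for 10233 genes of the files. The motifs were searched on both strands. The ETS motif CCGGAAG, which GABP (also called NRF2) recognizes, was held by 23 members (33.8%) against 17.6% of all promoters. The NRF1 motif GCGCATGCG, which overlaps itself on the other strand, was found in 7 members (10.3%) against 3.58%. The YY1 motif AAGATGGCG was found in 8 (11.8%) against 3.12%, and the E-box CACGTG in 5 (7.35%) against 10.1%. The motif TCAAGGTCA of estrogen-related receptors was in no member window, and in 0.235% of all windows. Altogether 35 members had a motif, 8 of them of 2 kinds, and 33 had none, while the GC content was 58.2% in the members and 60.7% in all promoters (medians). A match is a description of letters and no evidence of binding.

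The 5 windows below show 3 members called in a comparison and, as members called in none, 1 that varied unlike the others and 1 with a start near that of another member, with 200 bases before and 30 bases from the start site, 5′ to 3′ on the strand of the gene, from RefSeq (GRCm38.p6). Capitals mark matches of the motifs. Mrpl45 rose in both EDL comparisons and has no match. Mrps18a, which had the lowest p in soleus vs EDL, has an ETS match 26 bases before the start and a YY1 match from base 12 on, counting the start as base 1. Mrps12, which rose in psoas, has an ETS match from base 2 on. Mrpl32, a member that did not follow the others, has 2 NRF1 sites 87 and 23 bases before the start, of which the first matches on both strands. Mrps11, whose gene start in GENCODE M21 lies 412 bases from that of Mrpl46, has a YY1 match on the reverse strand 108 bases before the RefSeq start.
Mrpl45 (chr11:97315516-97315745, forward strand): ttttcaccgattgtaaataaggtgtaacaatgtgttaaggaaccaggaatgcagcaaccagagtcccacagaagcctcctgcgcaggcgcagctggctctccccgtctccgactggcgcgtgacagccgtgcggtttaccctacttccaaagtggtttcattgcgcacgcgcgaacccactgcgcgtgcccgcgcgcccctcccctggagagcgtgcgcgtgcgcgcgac
Mrps18a (chr17:46110804-46111033, forward strand): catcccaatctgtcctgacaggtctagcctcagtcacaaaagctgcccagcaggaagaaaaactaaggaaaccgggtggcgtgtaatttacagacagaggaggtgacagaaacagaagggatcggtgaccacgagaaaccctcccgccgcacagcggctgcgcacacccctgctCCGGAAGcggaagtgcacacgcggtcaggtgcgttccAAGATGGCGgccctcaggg
Mrps12 (chr7:28741792-28742021, reverse strand): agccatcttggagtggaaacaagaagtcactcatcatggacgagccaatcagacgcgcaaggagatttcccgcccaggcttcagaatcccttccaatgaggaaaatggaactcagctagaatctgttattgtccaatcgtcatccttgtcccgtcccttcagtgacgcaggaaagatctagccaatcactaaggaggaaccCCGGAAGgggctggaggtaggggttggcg
Mrpl32 (chr13:14613008-14613237, reverse strand): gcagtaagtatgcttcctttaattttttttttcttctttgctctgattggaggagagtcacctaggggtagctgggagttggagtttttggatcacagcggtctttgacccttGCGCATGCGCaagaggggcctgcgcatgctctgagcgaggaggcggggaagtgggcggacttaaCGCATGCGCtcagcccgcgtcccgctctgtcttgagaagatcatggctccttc
Mrps11 (chr7:78782931-78783160, forward strand): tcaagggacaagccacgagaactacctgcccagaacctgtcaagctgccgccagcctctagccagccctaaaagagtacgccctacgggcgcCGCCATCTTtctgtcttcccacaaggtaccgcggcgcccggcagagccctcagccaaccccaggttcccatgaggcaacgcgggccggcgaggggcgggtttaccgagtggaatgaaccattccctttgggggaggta

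Many members share their start region with a neighbor, with starts taken here as the outer 5′ ends of genes in GENCODE M21. These can differ from the RefSeq starts of the motif windows. Mrpl36, for example, begins at chr13:73328513 in GENCODE M21, and its motif window is chr13:73330759-73331058. A protein-coding gene of the opposite strand started head to head within 1000 bases, in some pairs with overlapping first exons, for 33 of the 77 members (42.9%), against 2005 of 13126 protein-coding genes in the files (15.3%). For 21 of these members the starts were under 200 bases apart. Some neighbors serve mitochondria too. By these gene ends, Mrpl36 and Ndufs6, a complex I subunit, start 29 bases apart, and Mrpl47 and Ndufb5, also of complex I, 615 bases apart. Mrps12 and Sars2, the mitochondrial seryl-tRNA synthetase, start 172 bases apart, and Mrpl43 and Twnk, the mitochondrial DNA helicase, 779 bases apart. Mrps11 (chr7:78783119-78792989) and Mrpl46 (chr7:78775236-78783531) are genes of the small and the large subunit that are neighbors of each other and share exon bases.

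The first question was whether the fast muscles EDL and psoas differ in these genes. In psoas, all 77 members had a log2 fold change above 0 against EDL (50.5% of all genes), and the median was 0.39 over the members and 0.01 over all genes. With upper-quartile scaling or limma-voom, 76 of the 77 lay above 0. Differences were tested with edgeR's quasi-likelihood test over all 16112 genes. At the study's thresholds (adjusted p under 0.01 and fold change over 2), which 2.11% of all genes passed, no member was called by edgeR, DESeq2, or limma-voom, although 34 were higher and 0 lower at an unadjusted p under 0.05 in edgeR, against 13.6% and 15.4% of all genes. At an adjusted p under 0.05 without a fold threshold, 6 members (7.79%) rose in psoas, against 4.76% of all genes, and 0 fell, against 6.34% of all genes, with 0 lower at an unadjusted p under 0.05 and 0 lower by DESeq2 and limma-voom. The 3 psoas libraries lay above the 3 EDL libraries for 32 members, or 41.6%, against 13.4% of all genes, and below them for 0, against 16.3%.

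Of the 6 members that rose in psoas, 2 belong to the large subunit, 3 to the small subunit, and Mrps36 to neither. In the large subunit, Mrpl45 (chr11:97315716-97329920), whose product lies near the exit of the ribosome at the inner membrane, stood at 3.53, 3.56, and 4.15 FPKM in EDL and at 5.84, 7.16, and 5.89 FPKM in psoas. The lowest psoas library was well above the highest EDL library, and the log2 fold change was 0.75 ± 0.16 (SE, edgeR adjusted p = 0.016). Mrpl12 (chr11:120484613-120489065), a stalk protein of the large subunit, stood at 14.8, 15.7, and 21.3 FPKM in EDL and at 25.6, 30, and 25.9 FPKM in psoas. It rose by 0.66 ± 0.18 (log2, edgeR adjusted p = 0.036), and its exons overlap those of the lincRNA Gm16755 on the opposite strand.

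In the small subunit, Mrps2 (chr2:28468066-28471178) had the largest log2 fold change of the members in psoas vs EDL, 0.83 ± 0.20 (edgeR adjusted p = 0.022). Its FPKM was 2.01, 2.6, and 3.20 in EDL and 4.88, 3.98, and 4.97 in psoas, with no overlap. Mrps12 (chr7:28739641-28741820), a protein of the decoding center, stood at 7.59, 8.59, and 8.56 FPKM in EDL and at 12.7, 13.0, and 12.3 FPKM in psoas. The log2 fold change of Mrps12 was 0.62 ± 0.18 (edgeR adjusted p = 0.046), with little spread inside either muscle. Mrps35 (chr6:147042764-147073991) stood at 1.19, 1.69, and 1.60 FPKM in EDL and at 2.28, 2.43, and 2.15 FPKM in psoas, a log2 fold change of 0.62 ± 0.18 (edgeR adjusted p = 0.048).

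Mrps36 (chr13:100735955-100744659), the member outside the ribosome, stood at 22.3, 25.8, and 27.3 FPKM in EDL and at 33.8, 40.3, and 37.2 FPKM in psoas. It rose by 0.56 ± 0.14 (log2 fold change, edgeR adjusted p = 0.031). Mrps30, of the large subunit, had a log2 fold change of 0.53 ± 0.18 in psoas vs EDL and of 0.48 ± 0.17 in soleus vs EDL, and Mrpl58, a peptidyl-tRNA hydrolase built into the ribosome, of 0.18 ± 0.16 and 0.25 ± 0.15, and neither passed the test. The smallest log2 fold changes in psoas vs EDL were those of Mrps5 (0.07 ± 0.19), Mrpl24 (0.08 ± 0.15), and Mrps17 (0.08 ± 0.18), none of which passed the test.

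**Figure D3:**
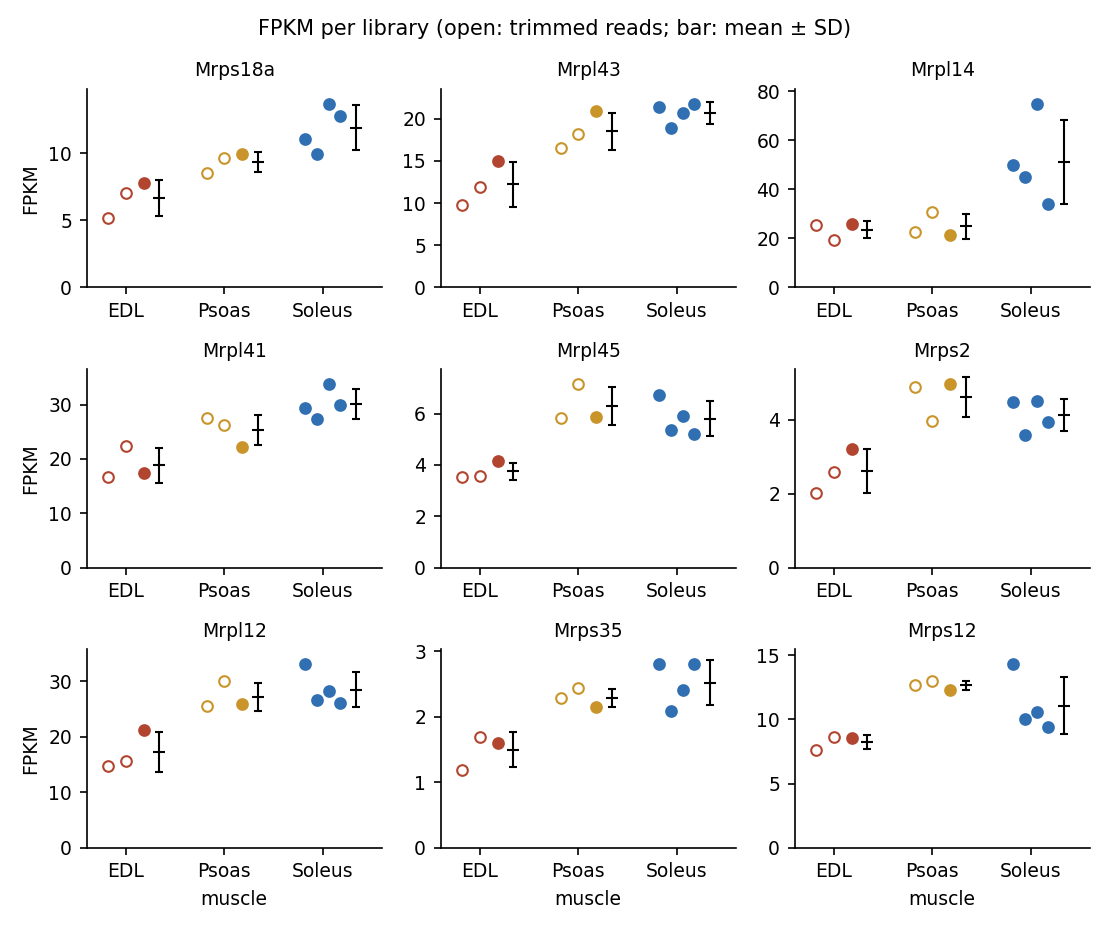
FPKM per library of 9 members that passed an adjusted p of 0.05 in a comparison with EDL (open circles for trimmed reads, bar for mean ± SD, axes from 0). All soleus points lie above the highest EDL point in each panel, and so do all psoas points except in the panels of Mrpl14 and Mrpl41.

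These calls rest on few libraries. Without EDL 1 or without EDL 2 no member was called in psoas vs EDL, when 0.596% and 0.962% of all genes were called higher, and without EDL 3 there were 24 calls (31.2%), against 10.5% of all genes. The calls over all genes moved with these libraries too. Leaving out psoas 1, psoas 2, or psoas 3 left 1 call each (1.96%, 2.94%, and 2.94% of all genes), leaving out soleus 3 or soleus 4 left 3 or 2 (4.33% and 3.51%), and a fit of EDL and psoas alone made 0 (1.92%). With the replicate number as a block, which matches EDL and psoas in age, sex, and trimming, Mrpl45 and Mrps2 were called and Mrpl12, Mrps12, Mrps35, and Mrps36 were not (2.6% of the members, against 3.08% of all genes called higher). Within the trimmed libraries, psoas 1 and 2 lay above EDL 1 and 2 in mean CPM for 75 members (median log2 ratio 0.49), and within the untrimmed libraries, psoas 3 lay above EDL 3 for 73 members (median 0.25). Over all genes with counts in every library, both of these medians were 0.02. With trimming as a covariate, 11 members (14.3%) were called higher in psoas vs EDL, against 7.79% of all genes, and 16.2% of all genes were called in either direction.

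The second question was how the slow soleus compares with EDL. In soleus, 70 of the 77 members had a log2 fold change above 0 against EDL (46.9% of all genes did), with a median of 0.40, against -0.05 over all genes. With upper-quartile scaling these were 62 members and a median of 0.31, and the median of all genes moved to -0.14. The stricter thresholds were passed by 5.77% of all genes and, in edgeR, by no member, although 41 were higher and 0 lower at an unadjusted p under 0.05, against 17.0% and 18.1% of all genes. DESeq2 called Mrpl14 and Mrpl28, and limma-voom called none. At an adjusted p under 0.05, 16 members (20.8%) rose in soleus, against 9.79% of all genes, and 0 fell, against 8.8% of all genes, with 0 lower at an unadjusted p under 0.05 and 0 lower by DESeq2 and limma-voom. All soleus libraries lay above all EDL libraries for 30 members (39%), against 15.2% of all genes, and below them for 0, against 14.3%. The psoas and soleus comparisons share the 3 EDL libraries.

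Of the 16, 12 belong to the large subunit and 4 to the small subunit. Mrps18a (chr17:46110986-46128910), a large subunit protein with 2 related genes, Mrps18b and Mrps18c, stood at 5.17, 7.03, and 7.78 FPKM in EDL and at 11.1, 9.97, 13.7, and 12.8 FPKM in soleus. The soleus libraries were well apart from EDL, and the log2 fold change was 0.84 ± 0.18 (edgeR adjusted p = 0.0088, the lowest of the members). The related small subunit genes did not pass: the log2 fold change was 0.06 ± 0.26 for Mrps18b and 0.13 ± 0.18 for Mrps18c.

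Mrpl14 (chr17:45686322-45698495), whose product is bound by the assembly factor Malsu1 before the subunits join, stood at 25.3, 19.5, and 25.8 FPKM in EDL and at 50, 45.2, 74.9, and 34.1 FPKM in soleus. All soleus libraries lay above all others, with psoas at 22.6, 30.7, and 21.4 FPKM, and soleus 3 stood highest. Its log2 fold change in soleus vs EDL was 1.12 ± 0.25 (edgeR adjusted p = 0.012). Exons of Mrpl14 overlap those of Tmem63b on the opposite strand.

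Mrpl28 stood at 14.3, 12.0, and 20.3 FPKM in EDL and at 33.9, 24.1, 47.1, and 30 FPKM in soleus, a log2 fold change of 1.12 ± 0.29 (edgeR adjusted p = 0.021). Its psoas libraries, at 13.9, 26.6, and 24.5 FPKM, overlapped both. Mrpl55 followed with a log2 fold change of 0.84 ± 0.24 (edgeR adjusted p = 0.03). Of the other large subunit members, Mrpl43 was higher by 0.76 ± 0.17 (adjusted p = 0.01 in edgeR), Mrpl12 by 0.72 ± 0.17, Mrpl41 by 0.68 ± 0.16, and Mrpl45 by 0.63 ± 0.15 (log2 fold changes). Mrpl10, Mrpl16, Mrpl19, and Mrpl20 also rose in soleus.

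In the small subunit, Mrps35 had an FPKM of 2.80, 2.08, 2.40, and 2.80 in soleus, all above EDL, and a log2 fold change of 0.75 ± 0.17 (edgeR adjusted p = 0.012). Mrps26 stood at 2.01, 2.36, and 2.70 FPKM in EDL and at 4.18, 3.60, 3.66, and 3.58 FPKM in soleus, a log2 fold change of 0.67 ± 0.16 (edgeR adjusted p = 0.013). Mrps23 and Mrps2 also rose. Mrps28 (-0.17 ± 0.18), Mrpl42 (-0.13 ± 0.17), and Mrps31 (-0.11 ± 0.14) had the lowest log2 fold changes in soleus vs EDL, and none of them passed the test.

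Trimming and muscle cannot be fully told apart here, because no soleus library was trimmed. With trimming as a covariate the median log2 fold change of the members in soleus vs EDL was 0.25 and only Mrpl41 was called (1.3%, against 3.87% of all genes called higher), and with a proxy for the sequencing run, built from trimming and age, the median was 0.20 and there were 0 calls, against 2.83%. Mrpl41 (chr2:24974117-24975098) stood at 16.6, 22.4, and 17.4 FPKM in EDL and at 29.4, 27.3, 33.8, and 29.9 FPKM in soleus, with trimmed and untrimmed EDL libraries interleaved. Leaving out EDL 1 left 0 calls, EDL 2 left 3 (3.9%), and soleus 3 left 9 (11.7%), against 4.19%, 4.68%, and 7.22% of all genes called higher, while leaving out EDL 3 gave 31 (40.3%), against 14.6%. In the animal with code 765A, soleus 2 was above EDL 3 for 40 of the 77 members, with a median log2 ratio of 0.01 (0.03 over all genes). In this pair of untrimmed libraries, which also entered the calls, the log2 ratios of the 16 called members ran from 0.03 (Mrpl16) to 0.81 (Mrpl14). Mrpl41 had 0.65, Mrps26 0.42, and Mrps18a 0.36, while Mrpl28, with a fold change as large as that of Mrpl14 in the comparison of all libraries, had 0.25, and Mrpl55, Mrpl20, Mrps23, and Mrps2 had 0.22, 0.21, 0.17, and 0.16.

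**Figure D4:**
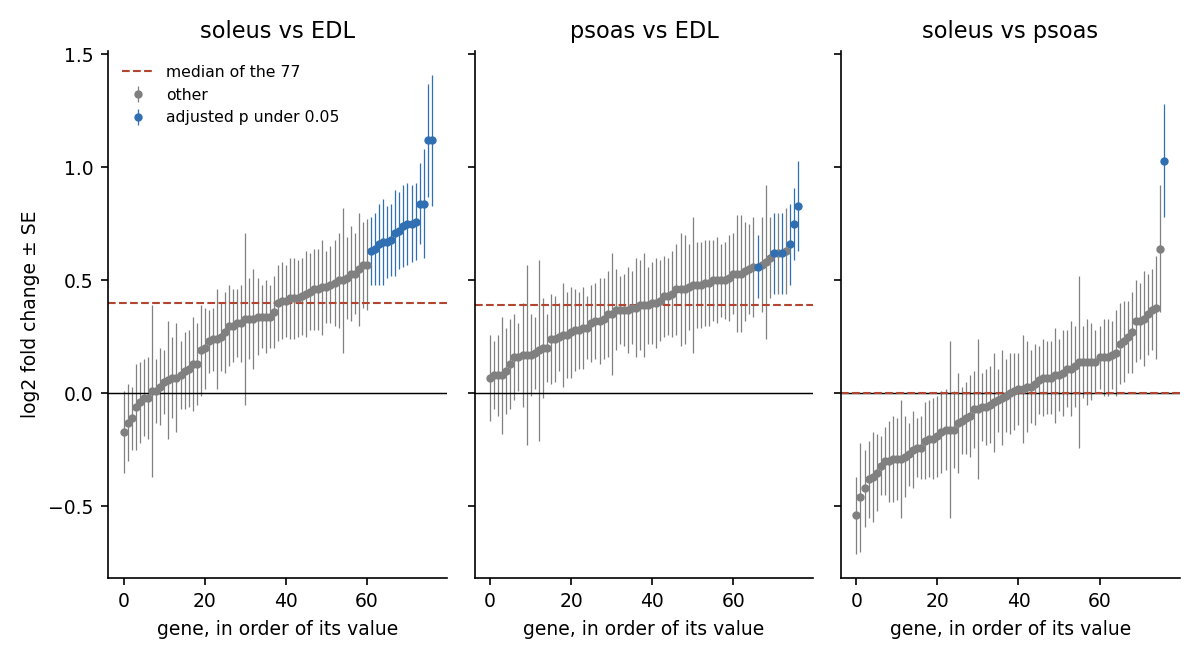
Log2 fold change ± SE of the 77 genes in soleus vs EDL, psoas vs EDL, and soleus vs psoas, each in its own order, with genes at an adjusted p under 0.05 in blue and the median dashed. The medians are 0.40, 0.39, and 0.00, with 16, 6, and 1 genes in blue, all of them above 0.

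The last comparison was between soleus and psoas, and the members moved in both directions around 0. The median log2 fold change was 0.00 (0.02 over all genes), with 39 members above 0 (51.4% of all genes), or 37 with upper-quartile scaling, and values ran from -0.54 to 1.03. The stricter thresholds were passed by 5.69% of all genes and by no member in edgeR, with 2 higher and 3 lower at an unadjusted p under 0.05, against 15.1% and 13.3% of all genes. DESeq2 called Mrpl14 and limma-voom no member at these thresholds. At an adjusted p under 0.05, 1 member (1.3%) rose in soleus, against 7.75% of all genes, and 0 fell, against 6.78% of all genes, while DESeq2 and limma-voom each called 1 lower. All soleus libraries were above all psoas libraries for 2 members (13.9% of all genes) and below them for 9 (11.9% of all genes).

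The member that rose was Mrpl14, with 50, 45.2, 74.9, and 34.1 FPKM in soleus and 22.6, 30.7, and 21.4 FPKM in psoas. Its log2 fold change was 1.03 ± 0.25 (edgeR adjusted p = 0.019), and it was not called without psoas 1, without psoas 3, or with trimming as a covariate. In matched animals, soleus 1 was above psoas 1 by 1.15 and soleus 4 above psoas 3 by 0.67 in Mrpl14 (log2 ratios of CPM). Mrpl42 stood at the other end, with an FPKM of 47.9, 55.7, and 48.8 in psoas and of 39.2, 29.0, 34.7, and 37.4 in soleus. The groups did not overlap, and its log2 fold change of -0.54 ± 0.17 (edgeR adjusted p = 0.053) passed the threshold in 8 of 22 alternatives.

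In the same comparison the log2 fold change was -0.42 ± 0.17 for Mrpl32, -0.46 ± 0.24 for Mrpl34, 0.64 ± 0.28 for Mrpl28, and 0.38 ± 0.23 for Mrpl55, none of which passed. Mrps36 was at 33.8, 40.3, and 37.2 FPKM in psoas and at 32.3, 28.7, 28.3, and 29.2 FPKM in soleus, a log2 fold change of -0.32 ± 0.13 that did not pass (edgeR adjusted p = 0.14). With trimming as a covariate, the median of the members in soleus vs psoas was -0.16, and with the run proxy it was -0.24. In animal 765B, soleus 4 was above psoas 3 for 32 of the 77 members (median log2 ratio -0.04). In animal 659, soleus 1 was above psoas 1 for 55 (0.26), where psoas 1 was trimmed and soleus 1 was not.

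The members were also split by subunit, ancestry, and exon overlap. The median log2 fold change in soleus vs EDL was 0.44 in the large and 0.33 in the small subunit, and in psoas vs EDL it was 0.39 and 0.34. Members with bacterial counterparts had medians of 0.41 and 0.38, and members found only in mitochondria 0.38 and 0.43. All psoas libraries lay above all EDL libraries for 15 of the 48 members with bacterial counterparts (31.2%). They did so for 16 of the 28 found only in mitochondria (57.1%), and for 13.4% of all genes. In soleus vs EDL the order of the groups was the reverse, with 20 (41.7%) and 9 (32.1%), against 15.2% of all genes. In soleus vs psoas, 29 of the 50 large subunit members and 10 of the 26 small subunit members had a log2 fold change above 0. The 50 members without exon overlap with a counted gene had medians of 0.41 and 0.44. At an adjusted p under 0.05, 12 (24%) and 5 (10%) of them were called higher, against 9.79% and 4.76% of all genes. These differences between groups of members were not tested.

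Markers of tendon, fibroblasts, and macrophages had median log2 fold changes below 0 in both comparisons with EDL, and those of some other cell types did not. The summed CPM of 7 tendon genes, none of them at 0, was 648 to 751 in EDL, 30.4 to 81 in psoas, and 85.2 to 423 in soleus, with 7 of 7 lower in psoas and 1 of 7 lower in soleus (edgeR adjusted p under 0.05). For 6 fibroblast genes, also above 0 in every library, it was 1930 to 3450 in EDL, 621 to 957 in psoas, and 636 to 1240 in soleus, with 4 of 6 lower in psoas and 4 of 6 lower in soleus. For 5 macrophage genes it was 56.7 to 115 in EDL, 21 to 39.8 in psoas, and 40.8 to 57.3 in soleus, with 3 of 5 and 1 of 5 lower, and none at 0. Tendon genes also differed in soleus vs psoas, where 7 of 7 were called higher (median log2 fold change 2.8). There, 0 fibroblast and 0 macrophage genes were called. EDL 1 was the lowest library for the members and the highest for the fibroblast genes. Adipocyte genes had median log2 fold changes of 1.97 in soleus vs EDL and 0.20 in psoas vs EDL. In the same order, the medians were -1.49 and 0.78 for erythroid genes, -0.45 and 0.33 for nerve, and -0.20 and -0.67 for endothelium. The part of all these cells in the result was not tested.

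Beside the members, mitochondrial translation needs further ribosomal proteins, assembly factors, tRNA synthetases, and translation factors. Of 5 ribosomal proteins whose symbols do not start with Mrp, 1 rose in soleus vs EDL and 0 in psoas vs EDL at an edgeR adjusted p under 0.05. Of all genes, 9.79% and 4.76% rose. The median log2 fold changes of these 5 were 0.23 and 0.35. Aurkaip1, the gene that rose, stood at 17.6, 20.8, and 24.2 FPKM in EDL and at 32.0, 25.4, 35.1, and 30 FPKM in soleus, with no overlap. Dap3 (0.20), Ptcd3 (0.23), Chchd1 (-0.01), and Gadd45gip1 (0.45, log2 fold changes in soleus vs EDL) did not pass in any comparison.

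Of 15 translation factors and related proteins, 5 (33.3%) rose and 0 fell in soleus vs EDL, against 9.79% and 8.8% of all genes. Their median log2 fold change was 0.48, with 1 lower at an unadjusted p under 0.05. In psoas vs EDL, 2 (13.3%) rose and 0 fell (median 0.44), against 4.76% and 6.34% of all genes. Lrpprc, which keeps mitochondrial mRNAs stable, stood at 7.24, 7.59, and 8.40 FPKM in EDL and at 17.8, 14.0, 15.6, and 13.3 FPKM in soleus. It rose by 0.97 ± 0.18 (log2, edgeR adjusted p = 0.0042). Mtif2, the initiation factor, and Oxa1l, which inserts new proteins into the inner membrane, were higher by 0.61 ± 0.16 and 0.69 ± 0.17 in soleus (log2 fold changes, both called). In psoas vs EDL, Taco1, the translational activator of cytochrome c oxidase subunit I, rose by 0.70 ± 0.14 (log2, edgeR adjusted p = 0.012), and Gfm2, which takes part in ribosome recycling, by 0.67 ± 0.15 (0.021). Taco1 stood at 13.3, 13.2, and 14.2 FPKM in EDL, 20.6, 24.5, and 21 in psoas, and 17.8, 15.4, 15.6, and 15.5 in soleus, so that it was highest in psoas. In soleus vs psoas, Taco1 (-0.45 ± 0.13) and the release factor Mtrf1l (-0.75 ± 0.22) fell.

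Of 20 genes for mitochondrial tRNA charging, with Lars2 among them, 6 (30%) rose and 0 fell in soleus vs EDL (median log2 fold change 0.52). In psoas vs EDL, 1 (5%) rose and 0 fell (median 0.45). Of all genes, 9.79% and 4.76% rose in these comparisons. Gatb, a subunit of the glutaminyl-tRNA amidotransferase, rose in both, by 0.74 ± 0.18 and 0.80 ± 0.19 (log2). Tars2 and Fars2, the threonyl- and phenylalanyl-tRNA synthetases, rose in soleus vs EDL by 0.81 ± 0.19 and 0.75 ± 0.17. Gatc, from the same amidotransferase as Gatb, fell in soleus vs psoas (-0.64 ± 0.17, edgeR adjusted p = 0.026). Of 25 genes of ribosome assembly, 3 (12%) rose and 1 fell in soleus vs EDL (median 0.18), near the 9.79% of all genes that rose. In psoas vs EDL, 0 rose or fell (median 0.28). There, 6 were higher and 0 lower at an unadjusted p under 0.05, against 13.6% and 15.4% of all genes. Mterf3 fell (-0.50 ± 0.16), and the genes that rose were the rRNA methyltransferases Mrm1 (1.01 ± 0.22), Mrm3 (0.56 ± 0.15), and Trmt2b (0.65 ± 0.16). Malsu1 fell in soleus vs psoas by 0.59 ± 0.14 (log2, edgeR adjusted p = 0.015), the comparison in which Mrpl14 rose. Of 13 measured genes that transcribe, process, or degrade mitochondrial RNA or copy mitochondrial DNA, the helicase Supv3l1 (0.75 ± 0.18) and Hsd17b10 (0.64 ± 0.19) rose in soleus vs EDL, none was called in psoas vs EDL (2 higher at an unadjusted p under 0.05), and Trmt10c fell in soleus vs psoas (-0.57 ± 0.17).

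**Figure D5:**
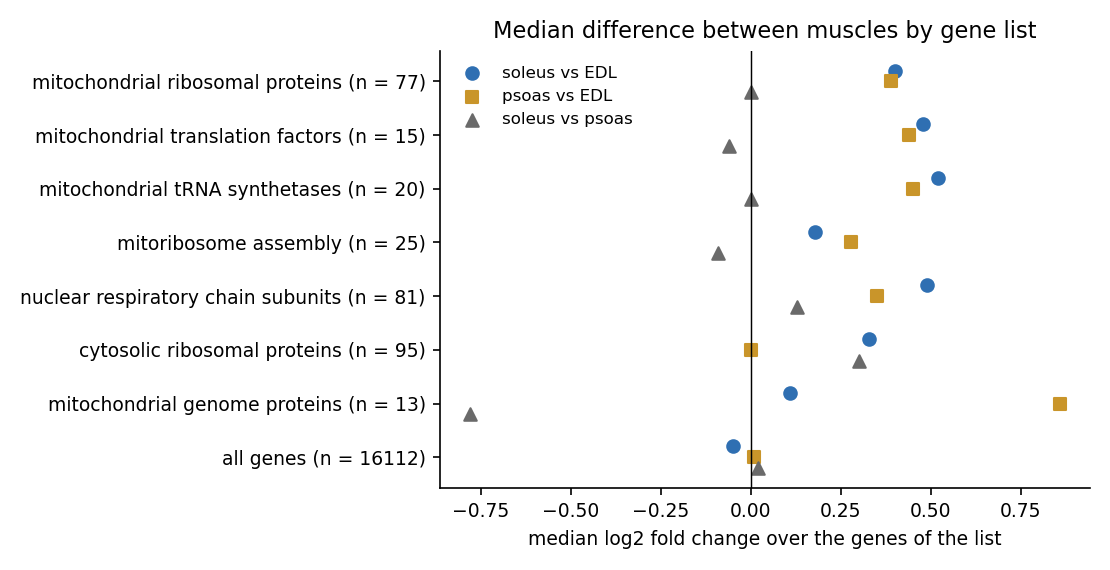
Median log2 fold change over the genes of each list in soleus vs EDL (circles), psoas vs EDL (squares), and soleus vs psoas (triangles). The mitochondrial ribosomal proteins lie at 0.40, 0.39, and 0.00, the cytosolic ribosomal proteins at 0.33, 0.00, and 0.30, and all genes at -0.05, 0.01, and 0.02.

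The products of mitochondrial translation join nuclear-encoded subunits of the respiratory chain. Of 81 such nuclear genes, 16 (19.8%) rose and 0 fell in soleus vs EDL (median log2 fold change 0.49), against 9.79% of all genes that rose. In psoas vs EDL, 0 rose or fell (median 0.35). There, 16 were higher and 1 lower at an unadjusted p under 0.05, against 13.6% and 15.4% of all genes. In soleus vs psoas, 5 of these 81 (6.17%) rose and 1 fell (median 0.13), and 1 mitochondrial ribosomal protein gene (1.3%) rose. Both shares lie under the 7.75% of all genes that rose. The 13 protein genes of the mitochondrial genome had medians of 0.11, 0.86, and -0.78 in soleus vs EDL, psoas vs EDL, and soleus vs psoas, with 0 calls in each, and 0, 4 higher, and 3 lower at an unadjusted p under 0.05. For the 95 cytosolic ribosomal protein genes, the medians were 0.33, 0.00, and 0.30, with 4, 0, and 3 higher and 1, 1, and 1 lower. Of all genes, 9.79%, 4.76%, and 7.75% were called higher. In psoas vs EDL, 3 cytosolic genes were higher at an unadjusted p under 0.05, against 13.6% of all genes. The differences between lists were not tested.

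Several factors that control nuclear genes for mitochondria are known, and 10 were looked up. In soleus vs EDL 2 (20%) rose and in psoas vs EDL 3 (30%) rose at an adjusted p under 0.05, against 9.79% and 4.76% of all genes. Esrra, an estrogen-related receptor that acts on genes of oxidative metabolism, stood at 3.54, 4.85, and 6.18 FPKM in EDL, 8.93, 11.7, and 9.02 in psoas, and 12.0, 10.8, 13.6, and 9.56 in soleus. It rose by 1.24 ± 0.21 in soleus (log2, edgeR adjusted p = 0.0028) and by 1.03 ± 0.22 in psoas (0.016), with EDL libraries below all others. Esrrg, a related receptor, stood at 0.29, 0.449, and 0.425 FPKM in EDL, 1.22, 1.01, and 1.09 in psoas, and 5.06, 5.29, 4.16, and 4.20 in soleus. Its log2 fold change was 3.60 ± 0.20 in soleus vs EDL (edgeR adjusted p = 4.6e-06) and 1.52 ± 0.20 in psoas vs EDL (edgeR adjusted p = 0.0023), so that the muscles were ordered without overlap. Ppargc1a, the coactivator of these receptors, stood at 3.12, 3.63, and 3.52 FPKM in EDL and at 6.05, 4.29, and 4.98 FPKM in psoas. It rose in psoas vs EDL by 0.58 ± 0.16 (log2, edgeR adjusted p = 0.04). The other factors, among them Nrf1, Yy1, and Gabpa, whose motifs were searched above, were not called against EDL. Nrf1 stood at 0.913 to 0.927 FPKM in EDL, 0.739 to 0.875 in psoas, and 0.932 to 1.05 in soleus. Yy1 stood at 1.51 to 2.26, 2.78 to 2.94, and 1.65 to 3.04 FPKM, and Gabpa at 5.79 to 7.34, 7.1 to 7.97, and 7.63 to 9.72 FPKM. A link of these factors to the members was not tested.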

How the data were processed

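The authors extracted RNA from whole muscles, made stranded total RNA libraries, trimmed low-quality libraries with Trimmomatic (version 0.32 per the labels), aligned read pairs with TopHat2 (2.1.1) to mm10 (GRCm38, patch 4), counted reads per gene in R, and removed genes without at least 10 reads in at least 3 samples. Each deposited file holds 1 library as raw read counts by gene, not normalized. The strand setting of the counting and the handling of reads with several alignments are not given in the sources used here. All 16112 genes met the filter when it was tested on the files, and 16032 have a symbol in GENCODE M21, from which exon lengths and positions were taken. The trimming and the RNA integrity number of each library were read from the study's supplement, and the sequencing run of a library is not given in the labels.

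The members, the lists, and the tests were chosen with earlier results of these data known. Groups were taken from the labels. Counts were fitted in edgeR 4.0.16 (R 4.3.3) with the quasi-likelihood test, TMM normalization, 10 libraries in 1 fit, and no covariate, with Benjamini-Hochberg adjustment over all genes, for 3 comparisons. Standard errors are the unshrunken log2 fold change over the square root of the F statistic. Calls were made at an adjusted p under 0.01 with a fold change over 2, as in the study, and at an adjusted p under 0.05. CPM and FPKM were computed with TMM scaling. DESeq2 1.42.0 and limma 3.58.1 were used in alternatives. Tables were made with Python 3.11.15, pandas 2.3.3, numpy 2.4.6, and scipy 1.17.1, and plots with matplotlib 3.10.9. The fit was tested on simulated counts. Against EDL, further marker lists gave calls at an adjusted p under 0.05 for adipocytes (3 of 6 higher in soleus, 0 in psoas), erythroid cells (1 of 5 lower in soleus, 0 in psoas), nerve (0 of 5 in each), and endothelium (0 of 5 in soleus, 1 of 5 lower in psoas).

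Named members are those with the lowest p among the called (8 per comparison and direction), the 3 highest and 3 lowest log2 fold changes, the 5 highest and 5 lowest levels, and Mrps18a, Mrps18b, Mrps18c, Mrps30, Mrps36, Mrpl12, and Mrpl58 for their role. From the other lists, named genes are the ribosomal proteins without an Mrp symbol and the called genes with the lowest p. Other members named in the text were added after their values were seen. A count of 0 would allow up to 3 counts (0.0595 to 0.236 CPM), counting error only, and no member reached it. The study states fewer mice than the animal codes in the labels, and p-values measure the spread between muscle samples.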

Additional observations from a re-analysis of the deposited data

Results flagged for a closer look

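In soleus, the only muscle with 4 libraries, 8 of the 77 members (10.4%) had a library far from the other 3 by Dixon's ratio, above its 95% critical value, 6 of them in soleus 2 and 2 in soleus 1. For normal values, chance flags about 1 in 20 groups. The members varied together (median correlation 0.81), so that a low library can flag many of them at once. The share over all genes is not given here, and no excess can be read from this count. Among the named members, Mrpl18 had an FPKM of 47.3 in soleus 2 against 59.9 to 62.3 in the other soleus libraries. Mrpl2 had an FPKM of 40.8 in soleus 2 against 47.9 to 48.5. In soleus 1, Mrpl34 had an FPKM of 21.5 against 14.7 to 15.7, and Mrps26 of 4.18 against 3.58 to 3.66. Soleus 2 was the lowest soleus library for the members as a whole (median -0.09), and the cause was not tested.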

How the results depend on the processing

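In 22 alternatives per comparison, the median log2 fold change of the members kept its sign in soleus vs EDL and psoas vs EDL, and no called difference of a named member changed sign (of all differences and mean levels of these members, 1944 values kept their level or side of the threshold, 105 were no longer past it, and 28 were newly past it). Further fits, of the untrimmed libraries, of the untrimmed libraries of 44 days, and of the trimmed libraries, were chosen after seeing the data (176 values on the same side and 41 no longer past it). For soleus vs EDL, the count at an adjusted p under 0.05 (16) went to 1 with trimming as a covariate, to 0 with the run proxy, with the untrimmed libraries, and with those of 44 days (3.87%, 2.83%, 1.1%, and 3.86% of all genes called higher), and ranged from 0 to 31 when each library was left out. The count with a fold change over 2 (0) was 2 in DESeq2, 1 in limma-voom with the animal as a random effect, and 0 to 1 without a library. The median (0.40) was 0.20 with the run proxy, 0.14 with the untrimmed libraries, and 0.11 with those of 44 days. For psoas vs EDL, the count at an adjusted p under 0.05 (6) was 12 (15.6%) in DESeq2, against 8.22% of all genes called higher. It was 0 in the fit of these muscles alone, against 1.92%. The count was 11 (14.3%) with trimming or with the run proxy as covariate, when 7.79% and 8.35% of all genes were called higher. With the trimmed libraries it was 1 (1.3%), against 5.28% of all genes, and it was 0 to 24 without a library. The fits of untrimmed libraries hold 1 psoas and 1 EDL library, so that their calls in this comparison say nothing about the members. With a fold change over 2 the count was 0 to 1 without a library, and the median (0.39) was 0.21 with the untrimmed libraries and with those of 44 days. For soleus vs psoas, the count at an adjusted p under 0.05 (1) was 2 with upper-quartile scaling, in DESeq2, in limma-voom with or without the animal, with genes of at least 1 CPM, and in the fit of these muscles alone. In each of these, 1 was higher (1.3%) and 1 lower, when 6.99 to 9.28% of all genes were called higher. The count was 0 with trimming and with the run proxy, against 5.27% and 4.62% of all genes called higher, and 0 to 2 without a library. DESeq2 called 1 with a fold change over 2. The median (0.00) was -0.16 with trimming and -0.24 with the run proxy. The fits of untrimmed libraries leave 1 EDL and 1 psoas library, which are assumed to vary like soleus, and the fit with sex leaves out soleus 3. The cause of these changes was not tested.

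With the replicate number as a block, 12 members were called in soleus vs EDL, 2 in psoas vs EDL, and 1 in soleus vs psoas at an adjusted p under 0.05. Of all genes, 7.48%, 3.08%, and 5.62% were called higher. The numbers match EDL and psoas in age, sex, and trimming, but EDL and psoas of the same number came from different animal codes. The correlation of deviations was 0.25, 0.09, and 0.50 for EDL and psoas of the same number and -0.15 for EDL 2 and soleus 2. Psoas 1 and soleus 1 share both number and animal code (0.34). EDL 3 and soleus 2 (0.19) and psoas 3 and soleus 4 (0.38) share only the code. No pairing was taken from the numbers.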
